A study of Mus musculus with 4 samples.

Results

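MEFs labelled as double knockout (DKO) of the G-type cyclins CycG1 and CycG2 were set against the MEFs labelled wild type (WT) of the CycG2 line. MEFs (mouse embryonic fibroblasts) are the mixed mesenchymal cells that grow out of dissociated embryos. The comparison takes each non-control probe off chromosomes X and Y whose signal passed the scanner software's background flag (called measured here) on either array, which gave 28401 probes of 39429 in all, and 22966 of 30418 genes on the autosomes. Another 1828 probes lay on chromosomes X and Y and were left out, and 9200 were dim, meaning not measured, on both arrays. Of the 28401 probes, 24859 were measured on both arrays, 2448 on the DKO array alone and 1084 on the array labelled G2WT alone. Where 1 side was dim, its level was taken as the lowest measured signal of that array, or as the probe's own where this was higher, so that the ratio is a lower limit, written "at least" or called a limit. The last 10 gave no ratio in that way.

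CycG1 and CycG2, encoded by Ccng1 and Ccng2, are unconventional cyclins. They bind regulatory subunits of protein phosphatase 2A (PP2A) rather than driving the cell cycle through a classical cyclin-dependent kinase. Ccng1 is a transcriptional target of p53, and CycG1 with PP2A acts on MDM2, the ubiquitin ligase that keeps p53 low. MEFs are primary cells whose expression reflects the part of the embryo they came from, which the Hox genes record, and how fast they divide.

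The DKO MEFs were labelled CycG1-/-CycG2-/-, and the MEFs of the comparison array were labelled CycG2+/+ (called G2WT here), both from C57BL/6J mice. Per the study's methods the Ccng1 allele has a neomycin cassette in place of all exons with the open reading frame, and MEFs came from mid-gestation embryos. The other 2 arrays of the series hold MEFs labelled CycG2-/- (G2KO) and the CycG1+/+CycG2+/+ MEFs paired with DKO (G1G2WT), and their values are given beside the comparison to show which array stands apart. Each array holds 1 preparation in logarithmic growth, with no treatment, so no ratio below has a replicate check, no test was possible, and the number of arrays limits every value. How many embryos went into a preparation, and at which passage the RNA was taken, is not given in the sources used here.

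Signals are given as multiples of the 75th percentile of all non-control spots of the array, and ratios as log2 of DKO over G2WT. On the autosomes, between 65.5% and 72.6% of probes were measured on an array. On 271 probes measured on both arrays and printed in 10 spots each, the SD between spots put an error of 0.123 (median, log2) on the ratio of a single spot pair, which covers the array alone and not the culture. The CycG2 genotype of neither array could be checked with its own gene. The Ccng2 probe read 0.104 on the array labelled G2WT, 0.091 on the array labelled G2KO, 0.0806 on the G1G2WT array and 0.0619 on the DKO array, all measured and within 1.68-fold of each other. The array labelled G2WT also stood apart from the others: the SD of log2 ratios was 1.03 between it and the G1G2WT array, but 0.57 between the arrays labelled G2KO and G1G2WT. The study's own comparison of the CycG2 pair runs in the opposite direction to these labels. It gives G2KO MEFs higher Xist, En2 and Sox2 and lower Pdgfra, Efemp1 and Cdkn2b, which here are traits of the array labelled G2WT. The study describes that comparison as dye-swapped, while the arrays here are single-colour. Whether it used the same hybridisations is not given. The label of the comparison array is therefore in doubt. If the labels of that pair were exchanged, the comparison would be of DKO with G2KO MEFs. Every direction below is drawn from the labels as deposited. The array labelled G2WT alone had Xist and alone lacked the Y-linked genes, so that the sex of the embryos, the preparation and the genotype cannot be told apart.

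Ccng1 itself separated the arrays. Its probe (chromosome 11 of mm9, 40562427 to 40562486) read 9.45 on the array labelled G2WT, 1.98 on the array labelled G2KO, 1.66 on the G1G2WT array and 0.00685 on the DKO array, where it was dim. It was therefore high on the array labelled G2WT, intermediate on the arrays labelled G2KO and G1G2WT, and at least 1293-fold lower in DKO MEFs than in the MEFs labelled G2WT. Whether the probe lies in the removed part of the gene was not tested. Ccng2 (chromosome 5, 93705131 to 93705190) had a log2 ratio of -0.75.

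Between DKO MEFs and the MEFs labelled G2WT, a difference of 4-fold or more was found for 2671 of 28401 probes (9.4%), with 1605 (5.65%) higher and 1066 (3.75%) lower in DKO MEFs. Counted by gene, with the brightest probe of each, 2210 of 22966 genes (9.62%) did, 1321 higher (5.75%) and 889 lower (3.87%), and these gene percentages are the background for every list below. Among genes measured on both arrays, 848 (4.22%) were higher and 636 (3.17%) lower by that much, and among such probes 1021 (4.11%) and 757 (3.05%). At 2-fold 3212 genes (14%) were higher and 2742 (11.9%) lower, and at 10-fold 531 (2.31%) and 271 (1.18%). The SD of the log2 ratios over the 24859 probes measured on both arrays was 1.162, their median was -0.08, and 77.2% of them lay within 2-fold. The median over all genes compared was -0.03.

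**Figure D1:**
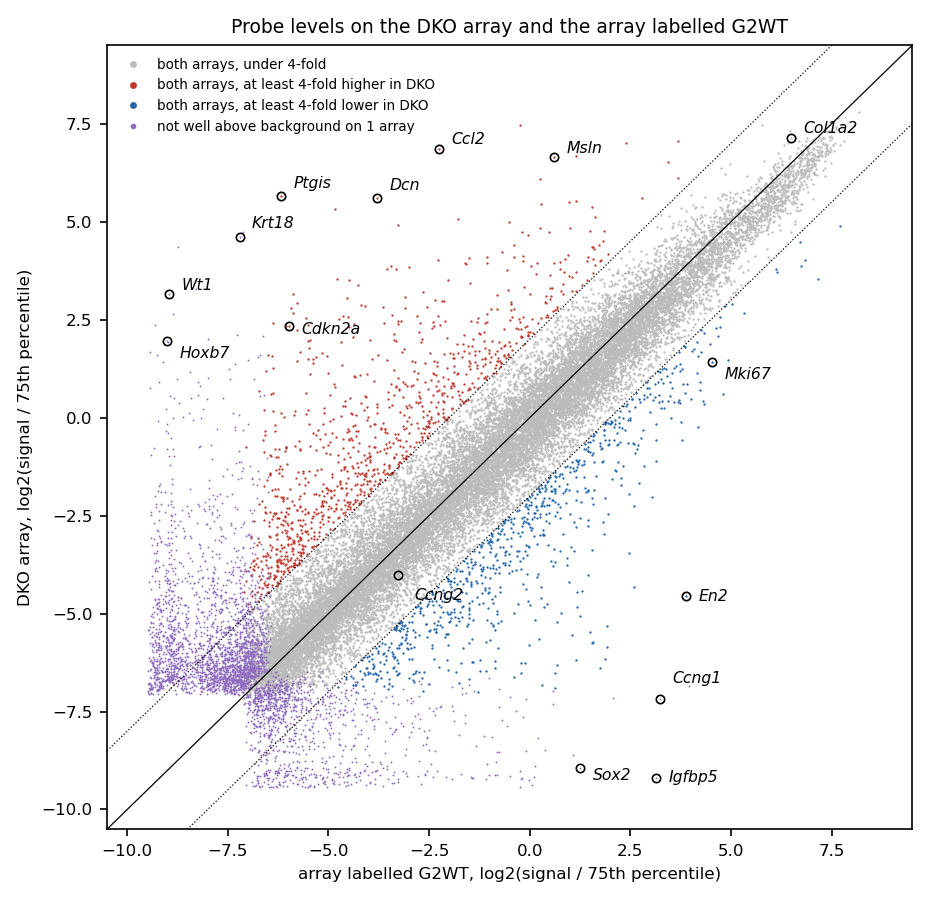
Each point is a probe of the comparison, with its log2 signal relative to the 75th percentile on the array labelled G2WT (x axis) and on the DKO array (y axis). The solid line marks equality, the dotted lines 4-fold, purple points were dim on 1 array, and circled points are the probes of named genes. The 1605 probes at least 4-fold higher in DKO lie over the upper dotted line or to the left of it, with Krt18, Ptgis, Wt1 and Dcn far from it, while Ccng1, Igfbp5, Sox2 and En2 lie at the lower right.

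The other arrays show on which side a difference lay. Of the 1321 genes higher in DKO MEFs, 763 (57.8%) lay, on both other arrays, nearer to the level on the array labelled G2WT, so that the DKO array stood apart, and 356 (26.9%) had both nearer to the DKO level, so that the array labelled G2WT stood apart. Of the 889 genes lower in DKO MEFs, 370 (41.6%) had DKO apart, 287 (32.3%) had the array labelled G2WT apart, and 232 (26.1%) were split. Both kinds of difference occur in the gene groups below.

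Genes of mitosis were lower in DKO MEFs throughout. All 20 genes of the list were measured on both arrays, 19 of them at least 4-fold lower, with a median log2 ratio of -2.76 against -0.03 over all genes. Bub1, a kinase of the spindle checkpoint, read 0.242 on the DKO array and 2.95 on the array labelled G2WT, a log2 ratio of -3.61. Ccna2, the cyclin of S and G2 phase, read 1.39 and 16.1. Plk1, the polo-like kinase that drives mitotic entry, read 1.55 and 14.4, and Mki67, whose protein marks cycling cells, 2.66 and 23.1. The smallest differences of the list were those of Cdk1, the kinase of mitotic cyclins, at -1.95, and of Aurkb, a kinase of the chromosomal passenger complex, at -2.02. All of these genes were lower on the DKO array than on the array labelled G2WT, though Aurkb was faint on both, at 0.0236 and 0.0957. The DKO array was not alone in being low. The median log2 level of the list was 2.90 on the array labelled G2WT, 2.13 on the array labelled G2KO, 0.28 on the DKO array and -0.12 on the G1G2WT array, and 18 of the 19 genes had 1 of the other arrays nearer to each side. For Plk1 the G1G2WT array read 1.44 and the array labelled G2KO 9.57.

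Promoters of these genes are known for CCAAT boxes, which bind NF-Y, and for the sequence TTTGAA near the start site, the cell cycle genes homology region (CHR) bound by the MuvB complex. Of the 20 genes, 17 had a promoter in the RefSeq table of GRCm38.p6, which gives 250 bases before and 50 after the start. CCAAT was found on either strand in 14 of these 17 (82.4%), against 37.9% of 27025 genes in the table. TTTGAA was found in 12 (70.6%), against 18.1%, and both in 11 (64.7%), against 7.12%. The letters of the 2 motifs can share 1 base, and the first listed start of each gene was searched. The 3 promoters printed each hold both motifs and are written 5′ to 3′ on the gene's strand, with CCAAT and TTTGAA on either strand in capitals. They are those of Ccnb2 (chr9:70421505-70421804, minus strand), a mitotic cyclin, Cdc20 (chr4:118437294-118437593, minus strand), the activator of the anaphase-promoting complex, and Plk1 (chr7:122159185-122159484, plus strand).
Ccnb2: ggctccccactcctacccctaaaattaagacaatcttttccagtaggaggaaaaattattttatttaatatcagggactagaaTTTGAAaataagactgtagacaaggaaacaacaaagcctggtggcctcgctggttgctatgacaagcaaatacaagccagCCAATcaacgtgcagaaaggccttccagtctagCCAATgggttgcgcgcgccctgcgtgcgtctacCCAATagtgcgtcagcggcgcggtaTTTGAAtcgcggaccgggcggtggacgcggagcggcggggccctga
Cdc20: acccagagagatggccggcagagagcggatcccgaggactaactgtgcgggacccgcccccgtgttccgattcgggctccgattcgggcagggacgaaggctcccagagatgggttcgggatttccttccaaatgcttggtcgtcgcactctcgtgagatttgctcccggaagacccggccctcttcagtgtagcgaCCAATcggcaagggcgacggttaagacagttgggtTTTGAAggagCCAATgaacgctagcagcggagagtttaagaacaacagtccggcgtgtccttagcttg
Plk1: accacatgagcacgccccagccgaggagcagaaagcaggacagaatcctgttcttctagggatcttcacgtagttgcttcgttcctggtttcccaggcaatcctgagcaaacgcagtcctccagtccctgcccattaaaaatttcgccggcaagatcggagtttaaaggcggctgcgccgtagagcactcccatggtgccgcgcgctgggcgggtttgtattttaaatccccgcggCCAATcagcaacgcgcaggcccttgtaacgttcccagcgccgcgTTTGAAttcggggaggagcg
In Ccnb2, CCAAT begins at -87, -54 and -21 relative to the start, and TTTGAA at -167 and at 5. In Cdc20 a TTTGAA at -18 lies between CCAAT at -53 and at -8, and in Plk1 a CCAAT at -14 precedes a TTTGAA at 31. The log2 ratios of these 3 genes were -2.59, -3.04 and -3.22. Ccnb1, another mitotic cyclin, had a ratio of -2.85 with 2 CCAAT and no TTTGAA in its window, and Birc5 (survivin) and Nuf2 (kinetochore), with neither motif there, had ratios of -2.15 and -2.90.

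DNA replication genes differed in the same direction by less. All 20 were measured on both arrays and lower in DKO MEFs, 13 by 2-fold or more and 1 at least 4-fold, with a median of -1.27. Rrm2, the subunit of ribonucleotide reductase made in S phase, read 4.98 on the DKO array, 26.7 on the array labelled G2WT, 17.5 on the array labelled G2KO and 9.91 on the G1G2WT array. Pcna, the sliding clamp, read 11.8 and 30.4, and Rrm1, the other subunit of the reductase, 11 and 13, a log2 ratio of -0.23. TTTGAA was found in 1 of 15 replication promoters (6.67%) and CCAAT in 10 (66.7%). Foxm1, a transcription factor of G2 and mitosis, read 0.547 on the DKO array, 2.86 on the array labelled G2WT, 1.14 on the array labelled G2KO and 0.342 on the G1G2WT array, in the order of the mitosis list.

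The inhibitors of cyclin-dependent kinases split into a locus that was low on 1 array and members within 4-fold. Cdkn2a, which encodes p16INK4a and p19ARF, read 5.09 on the DKO array, 0.0157 on the array labelled G2WT, 24.3 on the array labelled G2KO and 23.3 on the G1G2WT array. Cdkn2b, its neighbour on chromosome 4, which encodes p15INK4b, read 4.03, 4.07 and 6.31 on the DKO, G2KO-labelled and G1G2WT arrays and was dim on the array labelled G2WT. These genes were thus low on the array labelled G2WT alone, by 325-fold for Cdkn2a and at least 563-fold for Cdkn2b against DKO. A second probe of each gave log2 limits of 5.39 and 7.2. Mtap, on 1 side of them, had a ratio of 1.36, and Dmrta1, on the other, was lower by a limit of -6.25 and measured on the array labelled G2WT alone. The other 5 inhibitors were between -1.71 (Cdkn2d) and -0.22 (Cdkn1b). Cdkn1a, which encodes p21, read 5.00 on the DKO array and 8.20 on the array labelled G2WT, but 0.643 and 0.572 on the arrays labelled G2KO and G1G2WT. It was therefore high on both arrays of the comparison and low on both others.

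The p53 target list had a median of 0.55, with 3 of 22 genes at least 4-fold higher and none lower. Perp, a membrane protein of desmosomes and apoptosis, read 35 on the DKO array, 3.1 on the array labelled G2WT, 0.469 on the array labelled G2KO and 0.641 on the G1G2WT array. Fas, the death receptor, had a ratio of 2.96 and Trp53inp1, a p53-induced nuclear protein, of 2.17, with the DKO array apart in all 3. The lowest of the list was Gdf15, a stress cytokine, at -1.77. Trp53 itself read 0.867 and 0.673, and Mdm2 32.5 on the DKO array, 19.3 on the array labelled G2WT, 7.61 on the array labelled G2KO and 6.14 on the G1G2WT array, a ratio of 0.75. Of the 21 DNA damage response genes, 1 was at least 4-fold lower and none higher, with a median of -0.65. That gene was H2ax, the histone variant phosphorylated at double-strand breaks, which read 2.99, 18.1, 11.7 and 6.10 on the DKO, G2WT-labelled, G2KO-labelled and G1G2WT arrays. Chek2, a checkpoint kinase, had a ratio of -0.09.

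PP2A subunits, the partners of the G-type cyclins, were 0 of 11 at least 2-fold different by their brightest probes. Their ratios ran from -0.98 for Ppp2r5c, a B′ regulatory subunit, to 0.20 for Ppp2ca, the catalytic subunit, with a median of -0.43. Other probes did pass 2-fold, with a ratio or limit of 1.67 for Ppp2r1b, beside -0.72, and of -1.18 for Ppp2r5c. Ppp2r5c read 0.826 on the DKO array and 1.63, 1.97 and 1.86 on the other 3, so that DKO was the lowest of 4. Among the cyclins listed with Ccng1 and Ccng2, Ccnd1, a D-type cyclin of G1 phase, was lower in DKO MEFs at -1.86, but it read 10.4 on the DKO array, 9.67 on the array labelled G2KO and 8.69 on the G1G2WT array against 37.7 on the array labelled G2WT. The array labelled G2WT was thus the one apart. Ccni, which lies beside Ccng2, was at -0.42.

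**Figure D2:**
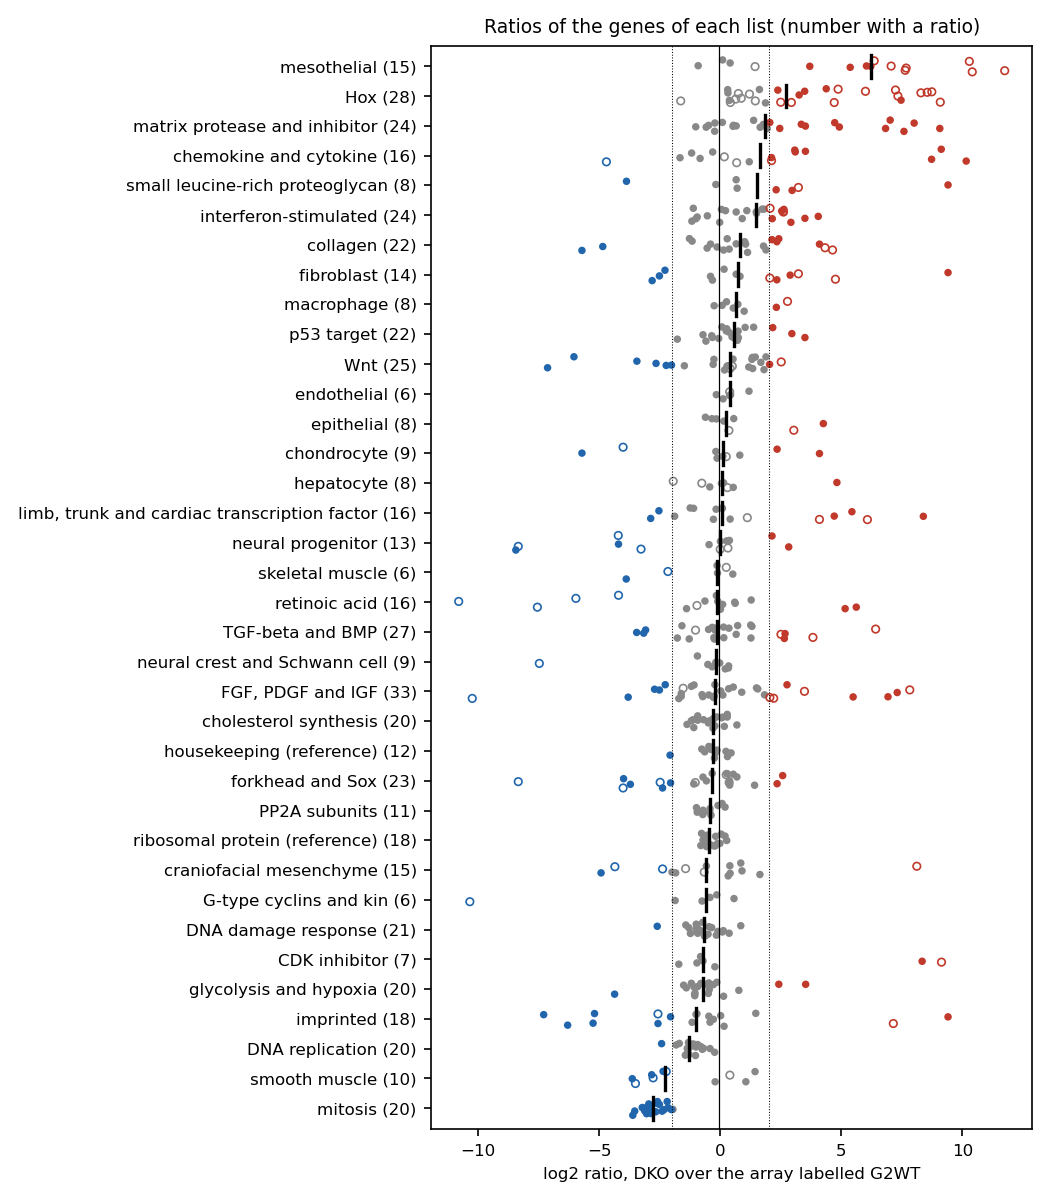
Log2 ratio of DKO over the array labelled G2WT (x axis) for each gene of 36 lists (y axis, with the number of genes that had a ratio). Points are genes, open where the ratio is a limit and coloured from 4-fold on, black bars are list medians, the solid line is the median over all genes (-0.03) and the dotted lines mark 4-fold. The mesothelial and Hox lists lie highest, with medians of 6.22 and 2.72, and the smooth muscle and mitosis lists lowest, with medians of -2.29 and -2.76.

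Mesothelial genes, which mark the epithelium lining the body cavities, were the highest group in DKO MEFs. Of 15 genes, all were measured on the DKO array and 7 on the array labelled G2WT. The 8 genes dim there could only give a positive limit. In all, 11 exceeded 4-fold in favour of DKO MEFs and none was lower by that much. The median log2 ratio was 6.22 with limits included, and 3.7 over the 7 genes measured on both arrays. Wt1, the zinc finger factor of the mesothelium and urogenital ridge (chromosome 2, 105013656 to 105013715), read 8.96 on the DKO array and was dim on the other 3, at 0.00187 to 0.00273. Msln, mesothelin, read 100.2 on the DKO array against 1.52 on the array labelled G2WT, 0.664 on the array labelled G2KO and 0.492 on the G1G2WT array. Krt18, the keratin paired with Krt8, read 24.7 and was at least 3442-fold higher than on the array labelled G2WT. Upk1b and Upk3b, uroplakins, and Bnc1, basonuclin, were at least 1359-fold, 133-fold and 205-fold higher. DKO stood apart from all 3 other arrays in 10 of the 11. The list did not move as a whole: Aldh1a2, the retinoic acid synthase, read 0.0118 and 0.0109, Tbx18 had a ratio of 0.41 and Krt7 of -0.91.

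Of the epithelial list, 2 of 8 genes were at least 4-fold higher. Cdh1, E-cadherin, read 0.25 on the DKO array and 0.013 on the array labelled G2WT, and Cldn6, a claudin, was higher by a limit of 3.04, while the other 6 of 8 genes lay between -0.61 and 0.56. The fibroblast list split, with 6 of 14 genes at least 4-fold higher and 3 lower. Col1a1, Col1a2 and Fbn1, matrix genes that are not particular to fibroblasts, were bright on both arrays, with ratios of -0.40, 0.66 and 0.16. Pdgfra, the other PDGF receptor, was among the higher ones by a limit of 2.05, but at 0.0296 on the DKO array it was far under the 1.75 and 5.22 of the arrays labelled G2KO and G1G2WT. Thy1, a surface antigen of fibroblasts, read 3.42 on the DKO array and 0.461 on the array labelled G2WT against 53.1 and 61.5 on the arrays labelled G2KO and G1G2WT, so that both arrays of the comparison were low. Pdgfrb, the PDGF receptor of mesenchyme, S100a4 and Postn were lower in DKO MEFs, at -2.51, -2.81 and -2.28, with DKO the lowest of the 4 arrays in each.

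Among the neural progenitor genes, 4 of the 5 lower in DKO MEFs had the array labelled G2WT apart. En2, a homeobox gene of the midbrain and hindbrain boundary, read 14.8 there and between 0.026 and 0.0424 on the other 3, and Sox2, a factor of neural stem cells, read 2.37 there and was dim on the others. Nes, the intermediate filament nestin, read 28.0 on the array labelled G2WT and 1.07 to 1.96 on the others. In all, 5 of 13 genes of the list were at least 4-fold lower in DKO MEFs and 2 higher, with a median of 0.00. Higher were Pax3, a neural crest and muscle factor that the arrays labelled G2KO and G1G2WT also had, and Lhx2 at 2.83. Sox10, the defining factor of neural crest and Schwann cells, was at -0.33. Tfap2a, an early neural crest factor, read 1.29, 0.982 and 1.42 on the arrays labelled G2WT, G2KO and G1G2WT and was at least 177-fold lower in DKO MEFs. A second Tfap2a probe had a smaller log2 ratio or limit, of -2.47. In the craniofacial mesenchyme list 3 genes were at least 4-fold lower, Msx2, Dlx1 and Pax9, with DKO apart in each, and 1 higher, Six2, by a limit of 8.12.

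Of 10 smooth muscle genes, 6 were at least 4-fold lower in DKO MEFs and 2 at least 2-fold higher, with a median of -2.29, or -1.29 over those measured on both arrays. Of the 6, Lmod1, Myocd and Synpo2 were faint on the array labelled G2WT and gave limits of -2.77, -3.5 and -2.23. Another Synpo2 probe had a ratio or limit of 0.23, and with normexp background correction Myocd fell to -1.19. Acta2, smooth muscle actin, read 29.6 on the DKO array against 210.4 on the array labelled G2WT and 133 on the G1G2WT array, and Tagln, transgelin, 11.6 against 145, 105 and 132. DKO was the lowest of 4 for both. Cnn1, calponin, read 1.41 on the DKO array and 7.22 on the array labelled G2WT, but 1.94 and 1.25 on the others. The higher ones were Actg2, enteric smooth muscle actin, at 1.82 and 0.871, and Myh11, the myosin of differentiated smooth muscle, at 0.0289 and 0.0106. Endothelial genes were 0 of 6 at least 4-fold different by their brightest probes, although a second, dimmer probe of Kdr, a VEGF receptor, had a ratio of 2.07 beside -0.16. Macrophage genes were 2 of 8 higher, Cd14 and Lyz2, with Ptprc, the pan-leukocyte antigen, at -0.25 and Adgre1, the F4/80 antigen, at 0.26. The hepatocyte list held 1 of 8 genes at least 4-fold higher, Trf, transferrin, and a second probe of Apoa2, an apolipoprotein, had a limit of 3.32 beside -0.43. The skeletal muscle list held 2 of 6 lower, Acta1 and Chrna1, and the chondrocyte list 2 of 9 higher, Col11a1 and Sox9, and 2 lower, Col2a1 and Sox6. Fewer cells of a type and less RNA per cell cannot be told apart in these arrays.

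**Figure D3:**
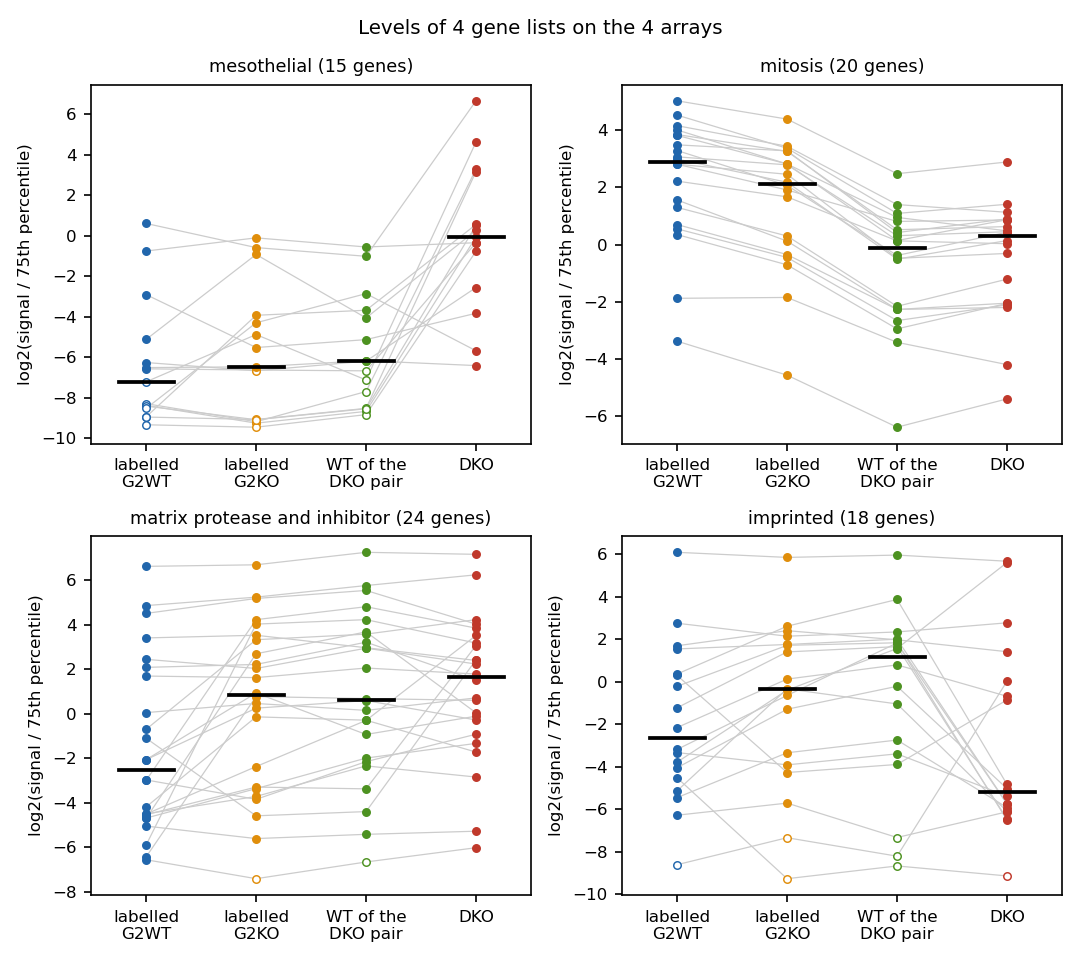
Log2 level relative to the 75th percentile (y axis) of the genes of 4 lists on the 4 arrays (x axis). Points are genes, open where the probe was dim, grey lines join a gene, and black bars are list medians. The mesothelial genes stand out on the DKO array, the mitosis genes order the arrays with medians of 2.90, 2.13, -0.12 and 0.28 from left to right, the matrix proteases are lowest on the array labelled G2WT, and the imprinted genes are lowest on the DKO array.

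Hox genes, whose clusters record position along the body axis, were mostly dim or faint on the array labelled G2WT and brighter on the DKO array. Of 39 genes, 28 entered the comparison. Of these, 17 were dim on the array labelled G2WT and could only give a positive limit. In all, 16 exceeded 4-fold in favour of DKO MEFs (background 5.75%), none was lower by that much, and the median was 2.72. Over the 10 genes measured on both arrays the median was 2.12. The Hoxb cluster on chromosome 11 was the clearest. Hoxb7 read 3.90, Hoxb4 3.06, Hoxb9 2.68 and Hoxb2 2.25 on the DKO array, and none of these was measured on any of the other 3 arrays. They were at least 544-fold, 427-fold, 374-fold and 314-fold higher than on the array labelled G2WT. All genes from Hoxb2 to Hoxb9 were at least 4-fold higher, while Hoxb1 and Hoxb13, at the ends of the cluster, were dim on both arrays. Among the other clusters, Hoxa3 read 1.05 on the DKO array and 0.0505 on the array labelled G2WT, and Hoxa2, Hoxc6 and Hoxd8 were measured on the DKO array alone, with limits of 4.87, 6.00 and 4.71. Toward the posterior ends of the clusters, Hoxa10, Hoxa11, Hoxd12 and Hoxd13 were dim on both arrays. All 16 genes had both other arrays nearer to the array labelled G2WT.

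**Figure D4:**
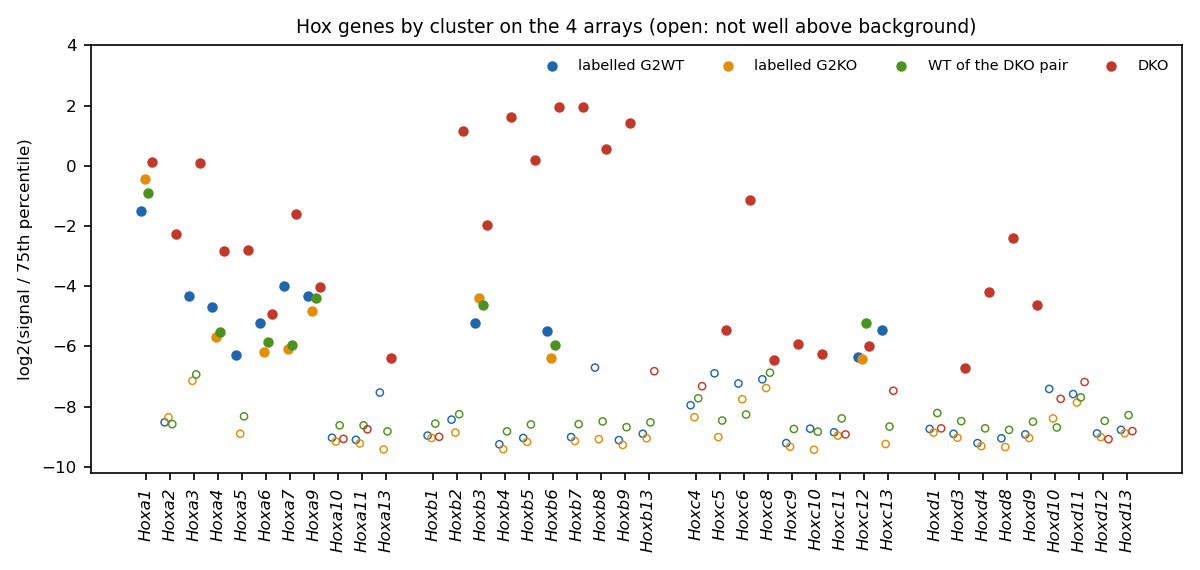
Log2 level relative to the 75th percentile (y axis) of 39 Hox genes in cluster order (x axis) on the 4 arrays, open where the probe was dim. The DKO array (red) lies above the other 3 from Hoxb2 to Hoxb9 and for 16 genes in all is at least 4-fold over the array labelled G2WT.

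Some factors of trunk and heart mesoderm were also high on the DKO array, though their list was split. Gata4, a factor of heart and of the mesothelium, read 5.04 on the DKO array and 0.015, 0.0147 and 0.014 on the arrays labelled G2WT, G2KO and G1G2WT, a 337-fold difference. Tbx5, of the forelimb and heart, Hand2 and Gata6 followed with 6.08 as a limit, 5.44 and 4.71, and Tbx2 with a limit of 4.10. In all, 5 of 16 factors of this list were at least 4-fold higher, each with DKO apart, and 2 were lower, Tbx3 at -2.53 and Meis1 at -2.87. At 2-fold, 6 were higher and 5 lower, among them Tbx20 at -1.88. The median of the list was 0.08, or -0.17 over the genes measured on both arrays. In the forkhead and Sox list 7 of 23 were lower, 5 of them with the array labelled G2WT apart, and 2 higher. Foxa2, an endoderm and floor plate factor, read 3.58 on the DKO array and 2.46 on the array labelled G2WT but was dim on the arrays labelled G2KO and G1G2WT, so that its ratio in this comparison was 0.54.

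Matrix proteases and their inhibitors were higher in DKO MEFs, 11 of 24 at least 4-fold and none lower, with a median of 1.86. Here the array labelled G2WT was most often the one apart, in 6 of the 11. Mmp2, gelatinase A, read 14.3 on the DKO array, 18.7 and 27.8 on the arrays labelled G2KO and G1G2WT and 0.126 on the array labelled G2WT. Mmp13, collagenase 3, read 1.52, 1.70 and 1.6 against 0.0117, and the cathepsin Ctsz 9.02, 16.2 and 18.7 against 0.0168. The cathepsin Ctsk and Adamts2, the procollagen peptidase, were instead high on the DKO array alone, at 8.35 and 11.4 against 0.0432 and 0.0443 on the array labelled G2WT. The inhibitors Timp2, Timp3 and Timp4 had ratios of 0.53, 1.38 and -0.23. Of 22 collagen genes 6 were at least 4-fold higher, 5 of them with the array labelled G2WT apart, and 2 lower, Col2a1 of cartilage at -5.71 and Col18a1 of basement membranes at -4.85. Among the higher ones, Col15a1 and Col8a2 had limits of 4.64 and 4.33, but their second probes were at -0.64 and 0.62. With normexp background correction Col8a2 fell to 1.92. Dcn, decorin, a proteoglycan of collagen fibrils, read 49.0 on the DKO array, 2.95 on the G1G2WT array, 0.757 on the array labelled G2KO and 0.0722 on the array labelled G2WT, a 679-fold difference over the comparison. Ogn, Podn and Lum, of the same family, were higher by 2.97, 2.31 and a limit of 3.23. Aspn, asporin, was dim on both arrays of the comparison and read 3.4 and 6.60 on the arrays labelled G2KO and G1G2WT.

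Chemokines and cytokines were 8 of 16 higher in DKO MEFs by 4-fold or more and 1 lower, with a median of 1.66, and the array labelled G2WT was apart in 6 of those 8. Ccl2, which draws monocytes, read 117 on the DKO array, 22.0 on the array labelled G2KO, 9.05 on the G1G2WT array and 0.21 on the array labelled G2WT. Ccl7, beside it on chromosome 11, read 39.9, 3.44, 2.27 and 0.0349 in the same order. Both were therefore highest on the DKO array and lowest on the array labelled G2WT. Il33, an alarmin cytokine, read 6.99 on the DKO array and 0.0164 on the array labelled G2WT, and was dim on the others. Cxcl12, which retains stem cells, read 92.7 and 10.8. The gene lower in DKO MEFs was Cxcl14, by a limit of -4.70, which was measured on the array labelled G2WT alone.

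Interferon-stimulated genes were 9 of 24 at least 4-fold higher, none lower by that much, with a median of 1.5. The highest were genes of antigen presentation. Psmb8, an immunoproteasome subunit, read 0.237 on the DKO array and 0.0143 on the array labelled G2WT. H2-K1 and H2-D1, class I histocompatibility genes whose near-identical sequences may share signal, read 12.6 and 8.25 against 1.11 and 1.41, and Tap1, the peptide transporter, had a ratio of 2.92. The classical antiviral genes did not follow: Isg15, a ubiquitin-like protein, was at -1.11, Bst2, tetherin, at -1.17, Ifit2 at -1.0 and Ifit3 at 0.66, while Ifit1, Oas1a and Oasl2 were dim on the array labelled G2WT and at least 4-fold higher by their limits of 2.06, 2.61 and 2.61, at 0.0437 or less on the DKO array. The letters GAAA followed, after any 2 bases, by GAAA again, the core of the interferon-stimulated response element, were found on either strand in 13 of the 22 promoters of this list that the table holds (59.1%), against 3.49% of all 27025. They were absent from the windows of Psmb8, Psmb9, Tap1, H2-K1 and H2-D1, which were higher, and present 3 times, overlapping, in that of Isg15. Igtp, an interferon-inducible GTPase, held 1 and had a ratio of 2.63. The promoters of Igtp (chr11:58199306-58199605, plus strand) and Isg15 (chr4:156200769-156201068, minus strand) are printed, with that motif in capitals, since they share it and differed in direction.
Igtp: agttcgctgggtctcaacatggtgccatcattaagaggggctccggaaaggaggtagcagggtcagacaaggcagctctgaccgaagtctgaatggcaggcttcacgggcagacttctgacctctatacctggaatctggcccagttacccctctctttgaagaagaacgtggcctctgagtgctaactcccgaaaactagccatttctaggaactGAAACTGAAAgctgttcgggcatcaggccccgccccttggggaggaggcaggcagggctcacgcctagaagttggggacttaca
Isg15: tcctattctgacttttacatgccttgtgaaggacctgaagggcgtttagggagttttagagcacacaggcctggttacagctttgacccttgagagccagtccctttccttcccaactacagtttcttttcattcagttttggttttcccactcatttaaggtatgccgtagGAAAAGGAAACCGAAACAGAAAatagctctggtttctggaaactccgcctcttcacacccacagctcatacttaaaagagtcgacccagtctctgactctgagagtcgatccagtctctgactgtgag
The motif begins at -34 in Igtp and at -78, -72 and -66 in Isg15. Isg15 read 0.199, 0.428, 0.163 and 0.572 on the DKO, G2WT-labelled, G2KO-labelled and G1G2WT arrays, and Igtp 0.131, 0.0212, 0.0752 and 0.18. The array labelled G2WT was the lowest of 4 for Igtp and the second highest for Isg15.

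In the list of FGF, PDGF and IGF genes, 8 of 33 were at least 4-fold higher, 6 of them with the array labelled G2WT apart, and 5 lower. Igfbp5, an IGF binding protein, read 8.84 on the array labelled G2WT, 0.471 on the array labelled G2KO and 0.111 on the G1G2WT array, and was at least 1210.5-fold lower in DKO MEFs. Igfbp6 and Fgf7 went the other way, at 14.7 and 7.22 on the DKO array against 0.0922 and 0.0593, with the arrays labelled G2KO and G1G2WT at or above DKO for Fgf7 and close to it for Igfbp6. Igf1 and Igf1r had ratios of 0.11 and -0.75. Fgfr1, Fgfr2 and Fgfr3, receptors for FGFs, lay between -1.61 and 0.02. In the TGF-beta and BMP list 5 of 27 were higher, all ligands (Gdf6, Bmp2, Bmp4, Tgfb3 and Bmp6), and 3 were lower, the activin subunit Inhbb, the receptor Bmpr1b and the activin antagonist Fst. Bmp4 read 5.42 and 0.846 and Fst 0.578 and 6.34. The receptors Tgfbr1, Tgfbr2 and Bmpr1a were between 1.26 and 1.31.

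In the Wnt list 2 of 25 genes were higher by their brightest probes, the secreted antagonists Sfrp2 and Sfrp4, and 6 lower. Second probes of the receptors Fzd2 and Ror1 also passed 4-fold, with ratios or limits of 3.12 and 2.68, beside 1.31 and 1.18. Neither Sfrp2 (1.05) nor Sfrp4 (0.98) reached 4-fold with normexp background correction, and Sfrp2 did not with median scaling (1.86) or quantile normalization (1.82). The secreted Dkk3 read 0.011 on the DKO array and 1.54, 7.2 and 7.58 on the others, a ratio of -7.13, and Lef1, a transcription factor of the pathway, 0.013 against 0.857, 0.19 and 0.177. Axin2, a feedback target of Wnt signalling, was at -1.48, but its second probe had a ratio or limit of 0.56. Wnt ligands of both directions were found, with Wnt5b and Wnt9a at 1.81 and 1.45 and Wnt10b, Wnt4 and Wnt5a at -3.44, -2.65 and -2.01. The genes of retinoic acid handling were 2 of 16 higher and 4 lower. Cyp26b1, which degrades retinoic acid, read 15.5 on the array labelled G2WT, 2.63 on the G1G2WT array and 0.555 on the array labelled G2KO and was at least 1784-fold lower in DKO MEFs, the largest limit in that direction among all genes. Crabp1, a binding protein, was at least 188-fold lower and Aldh1a3, a synthase, lower by a limit of -5.96. Aldh1a1, another synthase, read 16.9 and 18.9 on the arrays of the comparison but 0.0531 and 0.135 on the arrays labelled G2KO and G1G2WT. Dhrs3, which reduces retinal, read 1.72 on the DKO array, 2.15 and 4.69 on the arrays labelled G2KO and G1G2WT and 0.0349 on the array labelled G2WT, which was the one apart.

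Imprinted genes, expressed from 1 parental copy, were 7 of 18 at least 4-fold lower in DKO MEFs and 2 higher, with a median of -0.98. H19, the maternally expressed RNA beside Igf2, read 0.0186 on the DKO array and 2.91, 3.37 and 4.01 on the arrays labelled G2WT, G2KO and G1G2WT, and Meg3, a maternally expressed RNA of chromosome 12, 0.0109 against 0.858, 3.27 and 3.57. Plagl1, a zinc finger factor, and Slc38a4, an amino acid transporter, both paternally expressed, read 0.035 and 0.0113 on the DKO array, with ratios of -5.19 and -5.25. DKO was the lowest of 4 for these genes and apart in 6 of the 7. Their other probes did not all show this. The second H19 probe had a ratio of -0.22 and was faint on all 4 arrays, between 0.0173 and 0.0245, the other Meg3 probes were at -0.26 and a limit of -3.57, and those of Plagl1 at -5.3, -1.69 and -0.35. Igf2 was faint on all 4 arrays, at 0.0164 on the DKO array and 0.0228 on the array labelled G2WT. Peg3, paternally expressed, went the other way: it read 1.02 on the DKO array and was dim on the other 3, at least 142-fold higher. Dcn, also on the list, was the other gene higher.

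Groups used as a reference differed little but lay mostly below 0, so small list medians are to be read beside theirs. Ribosomal protein genes had a median of -0.47, from -0.80 to 0.27, with 15 of 18 below 0. By their brightest probes 0 of 18 were at least 2-fold different, while other probes of Rpl13a, Rps6 and Rps3 reached -1.73, -1.04 and -1.01. Housekeeping genes had a median of -0.31, with 9 of 12 below 0 and 1 at least 4-fold different, Tfrc, the transferrin receptor, at -2.07. Cholesterol synthesis genes were 0 of 20 at least 4-fold different, with a median of -0.30. Glycolysis and hypoxia genes had a median of -0.72, with 1 of 20 at least 4-fold lower, the HIF target Ankrd37 at -4.36, and 2 higher, Egln3, a prolyl hydroxylase, at 3.53 and Car9, a carbonic anhydrase, at 2.42.

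Among all genes measured on both arrays, the largest ratio was that of Ptgis, prostacyclin synthase (chromosome 2, 167028696 to 167028755), which read 50.1 on the DKO array and 0.0138 on the array labelled G2WT, 3615-fold. Pon3, a paraoxonase, Cpz, a carboxypeptidase, and Smpd3, a sphingomyelinase, were also among the 15 highest and highest on the DKO array, with ratios of 8.78, 8.53 and 8.20. Ripk3, the kinase of necroptosis, Plin3, a lipid droplet coat protein, and Ddr2, a collagen receptor, were among the 15 as well, with ratios of 8.72, 8.12 and 8.10, but the arrays labelled G2KO and G1G2WT had them too, and the array labelled G2WT was apart. The largest limit was that of Pdpn, podoplanin, which read 26.5 on the DKO array, 8.89 and 7.64 on the arrays labelled G2KO and G1G2WT, and was dim on the array labelled G2WT, at least 3688-fold lower there. Efemp1, a fibulin, was likewise dim on the array labelled G2WT alone. At the other end, Jaml, an adhesion molecule, read 0.012 on the DKO array and 3.37 on the array labelled G2WT and was near background on the others. Mgll, monoacylglycerol lipase, and Kctd15, a regulator of Tfap2 factors, read 0.0172 and 0.00832 on the DKO array, and 3.77 and 1.54 on the array labelled G2WT. They were low on the DKO array alone. Cdh13, T-cadherin, was at least 579-fold lower, also with DKO alone dim.

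Position in the genome was read on mm9 from probes measured on both arrays. The median log2 ratio of an autosome ran from -0.34 on chromosome 3 to 0.26 on chromosome 11, around -0.08 over all probes. These medians are small beside the SD of 1.162 but ran along whole chromosomes: all 13 windows of 10 Mb on chromosome 11 and all 11 on chromosome 14 were above the median of all probes, and 15 of 16 on chromosomes 3 and 7 and all 10 on chromosome 12 were below it. Against the array labelled G2WT, chromosome 11 had a median of 0.26 on the DKO array, 0.02 on the G1G2WT array and -0.06 on the array labelled G2KO, beside -0.08, -0.07 and -0.17 over all probes. Chromosome 3 had -0.34, -0.31 and -0.28. Whether copy number differed was not tested.

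**Figure D5:**
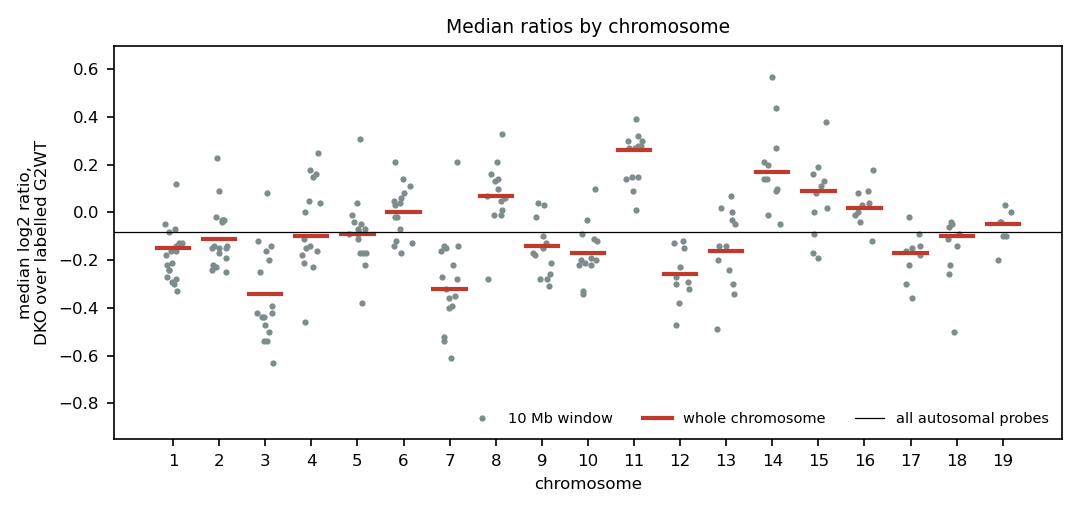
Median log2 ratio of DKO over the array labelled G2WT (y axis) by chromosome (x axis), over probes measured on both arrays. Grey points are windows of 10 Mb with at least 20 probes, red bars whole chromosomes and the line all autosomal probes (-0.08). Chromosome 11 lies highest at 0.26 and chromosome 3 lowest at -0.34.

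The neighbourhood of the targeted genes was read in the same way. Within 5 Mb of the Ccng1 probe, 5 of 32 probes (15.6%) differed at least 4-fold, 3 higher and 2 lower, and within 5 Mb of the Ccng2 probe 7 of 93 (7.53%), 6 higher and 1 lower, beside 9.4% over all probes. Beside Ccng1, Nudcd2 had a ratio of 0.82, Hmmr, a mitotic spindle gene, of -1.81 and Mat2b, a subunit of methionine adenosyltransferase, of 2.59, at 10.6 on the DKO array and 1.76 on the array labelled G2WT. Ebf1, a transcription factor gene farther off, had a ratio of -5.79. Beside Ccng2, Ccni and Septin11 were between -0.87 and -0.42.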

How the data were processed

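Total RNA of MEFs was labelled with Cy3 and hybridised in a single colour, and 4 arrays shared 1 slide. The deposited values are intensities: the authors' Agilent Feature Extraction (version 10.5.1.1 per the labels, 10.7.3.1 per the file headers) gave a background-subtracted processed signal for each spot. The deposited table of the series held the same processed values. No spot was saturated. From these, spots flagged as outliers were left out, spots of 1 probe were averaged, each array was divided by its 75th percentile (signals of 1777 for DKO and 1586 for the array labelled G2WT), and log2 ratios were taken with Python 3.11.15, pandas 2.3.3 and numpy 2.4.6. A probe is called measured where the files flag it as well above background, and dim otherwise. Probe positions are those of mm9 in the files. Of the autosomal probes, 25003 were named through accessions in the RefSeq gene table and 12598 as in the files. A gene is represented by its brightest probe (mean log2 signal, all 4 arrays).

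With 1 array a side there was no test, and 4-fold was used as the size that counts. The code was tested on simulated data. Members and gene lists were chosen with earlier results of these data known. Genes named are the targeted genes, those the study names, the 15 largest ratios and 10 largest limits each way, and the extremes of each list; other list members were named after their values were seen. Promoters are from RefSeq on GRCm38.p6. Alternatives were normexp background correction (limma 3.58.1 in R 4.3.3, offset 50), other scalings, filters, thresholds and probe rules. Some genes that this rule names are not reported here.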

Additional observations from a re-analysis of the deposited data

Results flagged for a closer look

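Probes on chromosomes X and Y were outside the comparison and held a signal that separated the array labelled G2WT from the other 3. Of the Y-linked genes, Ddx3y read 0.875 on the DKO array, 1.32 on the array labelled G2KO and 1.23 on the G1G2WT array, and was dim on the array labelled G2WT, which put it at least 122-fold higher in DKO MEFs. Eif2s3y was at least 254-fold and Uty at least 6.79-fold higher in DKO MEFs in the same way. Xist, the RNA that silences an X chromosome in female cells, read 1.13 on the array labelled G2WT and was dim on the other 3, at least 155-fold lower in DKO MEFs. A second probe of Xist gave a log2 limit of -5.80 and a second probe of Uty one of 1.52. The part of these sex-linked signals in the autosomal differences was not tested.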

How the results depend on the processing

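No listed gene ratio or list median of 4-fold or more changed sign under any alternative run, but smaller ones did. With normexp background correction, whose offset shrinks ratios of dim probes, 1355 probes differed at least 4-fold (839 higher, 516 lower) and 1154 genes (709 higher, 445 lower). With probes well above background on both arrays only, 1778 probes did (1021 higher) and 848 genes were higher. At 2-fold the counts were 7410 probes (3961 higher, 3449 lower) and 5954 genes (3212 higher, 2742 lower), and at 10-fold 967 probes (647 higher, 320 lower) and 802 genes (531 higher, 271 lower). The median of all probes lay between -0.26 and 0.08 over the alternatives, and single ratios are read against it. Under normexp the median of the mesothelial list was 4.31, of Hox 1.56, of smooth muscle -0.83, of imprinted -0.34, of the interferon list 0.74 and of the chemokine list 0.97. Over genes measured on both arrays the mesothelial median was 3.70, Hox 2.12, smooth muscle -1.29, chemokine 2.60 and proteoglycan 0.70, and the craniofacial (0.36) and forkhead and Sox (0.27) medians changed sign. Over all alternatives the retinoic acid (-0.30 to 0.10), trunk factor (-0.17 to 0.24) TGF-beta (-0.32 to 0.01), neural progenitor (-0.44 to 0.17), neural crest (-0.35 to 0.03), chondrocyte (-0.22 to 0.27), hepatocyte (-0.21 to 0.26) and skeletal muscle (-0.41 to 0.20) medians crossed 0. Calls at 4-fold that normexp ended included Sox6 (-1.72), Dlx1 (-1.70), Pax9 (-0.55), Lum (1.45), Postn (-1.82), Aurkb (-1.10), Tap1 (1.93), Sox9 (1.70), Bmp2 (1.76), Lyz2 (1.07), Chrna1 (-0.52), Cldn6 (1.1), Car9 (1.09), Sfrp2 (1.05), Sfrp4 (0.98) and Tfrc (-1.98). Without scaling, Birc5 (-1.98) and Aurkb (-1.85) fell short of 4-fold, and with scaling to the median Sfrp2 (1.86), Pax3 (1.97) and Trp53inp1 (1.99) did. No paired analysis was possible because each group has 1 array.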
